A study of Mus musculus with 8 samples.

Results

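The activator protein 1 (AP-1) genes described here are 10 members of the Fos, Jun, Atf3, Batf and Maf groups, namely Fos, Fosb, Fosl1, Fosl2, Jun, Junb, Jund, Atf3, Batf and Maff. They were chosen by gene symbol, all 10 were found among the 20681 rows of the table, and all 10 passed the filter on low values. Poly-A RNA of whole mouse knee joints was sequenced in 8 libraries, of which 4 carry the label control (vehicle-treated) and 4 the label knockout (a conditional knockout). The labels state that all 8 samples came from mice with a Cre recombinase under the control of the aggrecan gene (Acan-Cre) and loxP-flanked Loxl2 alleles (Loxl2 fl/fl), so the Cre acts in aggrecan-expressing cells and most cells of a joint are outside its reach. The library names of the control samples carry Vehicle and LOXL2wt, those of the other samples KO and LOXL2ko, and all 8 carry DMM, which usually stands for surgical destabilisation of the medial meniscus. The labels give no age, sex, time after surgery or name of the agent that the vehicle stands for, and do not say whether a sample is 1 animal. P-values below therefore measure the spread between these libraries only.

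AP-1 is not 1 protein but a set of dimers of basic leucine zipper proteins. Fos proteins must pair with a partner, most often a Jun protein, whereas Jun proteins can also pair with each other, with ATF proteins or with BATF. The dimers bind short palindromic DNA elements, and which subunits are present sets how strongly a bound gene is activated. Many of these genes are immediate early genes, transcribed within minutes of growth factor, mechanical or inflammatory signals. In the skeleton the family is known for roles in osteoclast formation (Fos), bone matrix formation (Fosl1, Fosl2) and the induction of matrix-degrading enzymes in cartilage and synovium.

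Several AP-1 genes carry binding elements for AP-1 or related factors in their own promoters, so the region before the start site was examined for the 9 members with an entry in the RefSeq promoter table (build GRCm38.p6, the same coordinates as mm10); Fosl1 was the member with no entry. Each window runs from 250 bases before to 50 bases after a start site, and the 9 members had 11 windows, 3 of them for Maff. The motifs searched on both strands were TGACTCA, the classical AP-1 element, TGACGTCA, the cyclic AMP response element, and TGACATCA, the variant known from the Jun promoter, which was added to the search after the windows had first been looked at. No motif overlapped another in these windows. Of all 32851 windows in the table, 5.20% held TGACTCA, 1.79% held TGACGTCA and 3.62% held TGACATCA. Among the members, Jun held TGACATCA starting 45 bases before its start site, 1 Maff window held TGACGTCA 29 bases before its start site, and another Maff window held TGACATCA at 45 bases. The windows of Fos, Fosb, Fosl2, Junb, Jund, Atf3 and Batf held none of these letters, and those of Fosl2, Jund and Atf3 belong to start sites 671, 1210 and 34706 bases from the start of the GENCODE gene. A match is a description of the letters and not a measured binding site.

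The 250 bases before the start site are shown for Jun, whose group means lay closest together, for Junb, which differed most clearly, and for the Maff window with the cyclic AMP response element. They are written 5′ to 3′ on the strand of the gene, with matched motifs in capitals. The Jun stretch is chr4:95052223-95052472 on the minus strand, the Junb stretch is chr8:84978749-84978998 on the minus strand, and the Maff stretch is chr15:79347270-79347519 on the plus strand.
Jun: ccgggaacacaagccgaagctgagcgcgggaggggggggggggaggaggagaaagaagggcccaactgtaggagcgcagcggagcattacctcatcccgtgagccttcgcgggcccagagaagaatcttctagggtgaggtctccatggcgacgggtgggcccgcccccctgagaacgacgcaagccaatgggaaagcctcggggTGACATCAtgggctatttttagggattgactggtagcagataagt
Junb: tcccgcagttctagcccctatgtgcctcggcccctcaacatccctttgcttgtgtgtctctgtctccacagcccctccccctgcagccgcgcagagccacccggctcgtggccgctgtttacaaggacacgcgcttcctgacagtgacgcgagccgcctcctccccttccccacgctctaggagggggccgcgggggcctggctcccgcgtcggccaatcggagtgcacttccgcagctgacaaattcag
Maff: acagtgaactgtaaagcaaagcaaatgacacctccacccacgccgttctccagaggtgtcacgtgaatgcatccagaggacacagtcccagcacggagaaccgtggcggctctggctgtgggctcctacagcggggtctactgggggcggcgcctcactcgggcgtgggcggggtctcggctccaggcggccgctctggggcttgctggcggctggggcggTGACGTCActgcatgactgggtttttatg
The Jun start site is that of the GENCODE M21 gene, the Junb start site lies 30 bases from that of the GENCODE gene, and the Maff window belongs to a start site 899 bases inside the GENCODE gene.

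The libraries held 13991000 to 17411617 reads assigned to genes. The targeted gene was not lower in the libraries labelled knockout. Loxl2 stood at 282, 349, 1135 and 311 normalised reads in the control libraries, in replicate order. In those labelled knockout it stood at 893, 1468, 960 and 1518. A value per gene in a whole joint does not show whether a loxP-flanked part was lost in aggrecan-expressing cells, so it cannot decide whether the labels hold. The libraries are therefore named by their labels throughout, and every direction below is that of the labels. Control replicate 3 stands with the libraries labelled knockout in Loxl2. The defining genes of the joint were present. Summed over the genes of a marker list, the level of 7 cartilage genes was 3039 to 7877 in the control libraries and 7951 to 12341 in the libraries labelled knockout, and that of 9 skeletal muscle genes was 1680824 to 1797325 and 834571 to 1173198. The 7 synovium and fibroblast genes summed to 37853 to 114153 and 136567 to 223272, and the 6 macrophage genes to 1064 to 2460 and 3809 to 5404. These 4 lists did not overlap between the groups, whereas the sums for bone, osteoclast, neutrophil, erythroid, B cell, T cell, endothelial, fat, skin and Schwann cell genes overlapped. Overlap does not mean that the levels were alike. The median osteoclast sum was 1894 in the control libraries (highest 10068) and 18176 in those labelled knockout (lowest 8257). The medians for bone were 1887 and 6654, and those for erythroid genes 37331 and 10339, in the same order. The smallest read sum of any row was 10, so no listed marker with a row could be at 0 in all 8 libraries. Of the 4 skin genes only Krt10 had a row. In a whole joint, more RNA of a gene per cell and more cells that express it cannot be told apart, and the part of these tissue differences in the AP-1 results was not tested.

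**Figure D1:**
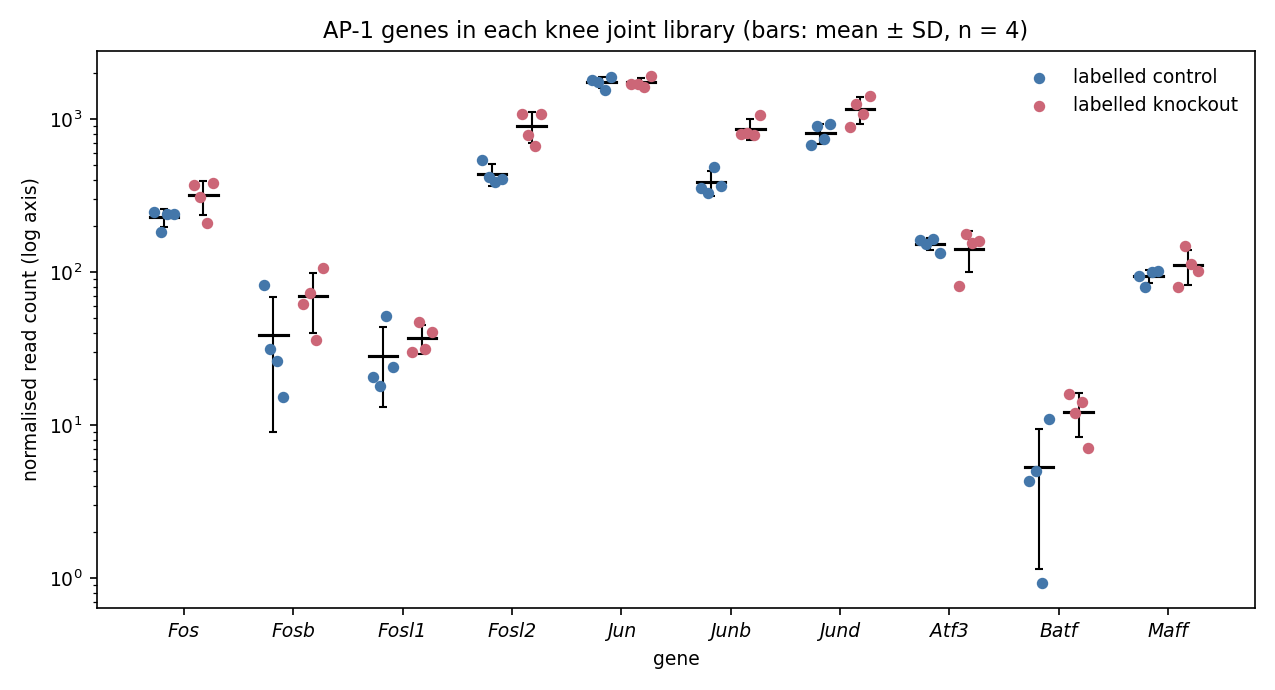
Normalised read count (log axis) of the 10 AP-1 genes, 1 point per library, with blue for labelled control and red for labelled knockout, and black bars for mean and SD (n = 4). Fosl2 and Junb are the genes whose groups do not overlap, while the Jun points of both groups lie between 1559 and 1922.

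The comparison of the groups asks which AP-1 subunits differ between joints labelled knockout and control. Fosl2, Junb and Jund rose in the libraries labelled knockout, by a log2 of 1.03, 1.17 and 0.50, and no AP-1 gene was called lower. Of the 10 members, 3 passed the limma test (adjusted p under 0.05), beside 23.2% of the 14949 genes tested in either direction, and all 3 were higher, beside 11.6% of genes called higher and 11.6% called lower. For 2 of the 10, Fosl2 and Junb, the groups did not overlap, beside 25.1% of all genes tested, so the share of members that differed was near that of genes at large. The median log2 difference of the 10 members was 0.49, beside 0.00 over all genes tested. Jun, the most abundant member by read count, had a difference of 0.00 and a 95% interval of -0.20 to 0.19.

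Among the Fos genes, Fosl2 was the one that was called. Fosl2 encodes FRA-2, a Fos protein without the strong activation domain of FOS that is known for roles in chondrocytes, osteoblasts and fibrosis. Fosl2 lies on chromosome 5 from 32135801 to 32157842 (mm10, here and for the other members) and overlaps no other annotated gene. Fosl2 had 542, 418, 388 and 409 normalised reads in the control libraries and 1080.1, 787, 674 and 1092 in those labelled knockout, each in replicate order. Every library labelled knockout lay above every control library, and the highest control library was replicate 1. That library also had the highest summed osteoclast marker level of the control group (10068). The same held for its bone (6593), neutrophil (4212), B cell (195), T cell (115) and fat (1002) marker levels. Its skin level was the lowest of the control group (34.6), and a link of any of these to Fosl2 was not tested. The group means of Fosl2 were 439 ± 69.7 (control) and 908 ± 210 (SD, n = 4). The fitted Fosl2 difference was a log2 of 1.03 (standard error 0.17, limma adjusted p = 0.00581), and its p ranked 366 among the 14949 genes. Without control replicate 3 the difference was 0.97 (limma adjusted p = 0.00928).

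Fos, the founding immediate early gene of the family and a gene required for osteoclasts, was not called. Fos lies on chromosome 12 from 85473890 to 85477273. Fos had 249, 185, 239 and 241 normalised reads in the control libraries and 370.0, 309, 210 and 386 in those labelled knockout, each in replicate order. Knockout replicate 3 was below 3 of the control libraries, and the other libraries labelled knockout were above all of them. The fitted Fos difference was a log2 of 0.45 with a 95% interval of 0.02 to 0.88 (limma adjusted p = 0.118). Without knockout replicate 3 it was 0.64 and was called (limma adjusted p = 0.0151).

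Fosb, an inducible Fos gene whose short splice form accumulates under lasting stimulation, was low and scattered. The table gives 1 value for all its splice forms. Fosb lies on chromosome 7 from 19302696 to 19310051. Fosb had 82.2, 31.3, 26.2 and 15.3 normalised reads in the control libraries and 61.8, 73.6, 35.9 and 107 in those labelled knockout, each in replicate order. Control replicate 1 was above all but 1 library labelled knockout, and the remaining control libraries were below all of them. The fitted Fosb difference was a log2 of 0.99 with a 95% interval of -0.09 to 2.08 (limma adjusted p = 0.163). Without control replicate 1 it was 1.44 and was called (limma adjusted p = 0.0356).

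Fosl1 encodes FRA-1, known for bone matrix formation by osteoblasts and for invasive fibroblast and tumour cells. Fosl1 lies on chromosome 19 from 5447547 to 5455946 and is overlapped on the opposite strand by Ccdc85b, so reads of the pair could not be told apart if strand was not used in counting, which the labels do not state. Fosl1 had 20.5, 18.2, 51.4 and 24.1 normalised reads in the control libraries and 29.9, 47.0, 31.5 and 40.5 in those labelled knockout, each in replicate order. Control replicate 3, the library with the high Loxl2 value, had the highest Fosl1 value of all 8, and the remaining control libraries lay below every library labelled knockout. The fitted Fosl1 difference was a log2 of 0.47 with a 95% interval of -0.29 to 1.23 (limma adjusted p = 0.341), and without control replicate 3 it was 0.79 (limma adjusted p = 0.0712).

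Of the 3 Jun genes, which can form AP-1 dimers without a Fos protein, Junb and Jund were called and Jun was not. Junb encodes a Jun protein that activates many elements more weakly than JUN and can oppose it. Junb lies on chromosome 8 from 84974484 to 84978718, with Prdx2 on the opposite strand across part of it, so reads of this pair too could not be separated without strand, and the same holds for the opposite-strand partners of Jund, Jun and Atf3. Junb had 358, 331, 491 and 369 normalised reads in the control libraries and 805, 818, 787 and 1077 in those labelled knockout, each in replicate order. The groups did not overlap, 3 of the libraries labelled knockout lay within 787 to 818, and the highest control library was again replicate 3. That library also had the highest summed fibroblast (114153), cartilage (7877) and endothelial (4565) marker levels of the control group. Its muscle (1680824), erythroid (16434), neutrophil (1046) and T cell (35.5) levels were the lowest of that group. A link of any of these to Junb was not tested. The group means of Junb were 387 ± 70.8 (control) and 872 ± 138 (SD, n = 4). The fitted Junb difference was a log2 of 1.17 (standard error 0.15, limma adjusted p = 0.00397), and its p ranked 40 among the 14949 genes. Without control replicate 3 the difference was 1.29 (limma adjusted p = 0.00157).

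Jund encodes the Jun protein found in most resting cells, where it is usually less inducible than the others. Jund lies on chromosome 8 from 70698949 to 70700616, opposite Gm11175. Jund had 678, 906, 749 and 928 normalised reads in the control libraries and 891, 1259, 1081 and 1428 in those labelled knockout, each in replicate order. Knockout replicate 1 lay below 2 control libraries, and the other libraries labelled knockout lay above all of them. The group means were 815 ± 121 (control) and 1165 ± 231 (SD, n = 4), and the fitted difference was a log2 of 0.50 (standard error 0.16, limma adjusted p = 0.0433). This call was close to the threshold. It was lost without any 1 of control replicates 1 to 4 or knockout replicates 2, 3 and 4, with differences of 0.40 to 0.57 (limma adjusted p 0.0526 to 0.116).

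Jun itself, the strongest activator of the Jun proteins, lies on chromosome 4 from 95049034 to 95052222, opposite the non-coding Junos. Jun had 1801, 1750.3, 1559 and 1903 normalised reads in the control libraries and 1714, 1717, 1641 and 1922 in those labelled knockout, each in replicate order. The ranges of the groups overlapped, with means of 1753 ± 144 and 1749 ± 121 (SD, n = 4). The limma adjusted p was 0.986, and the 95% interval of the log2 difference was -0.20 to 0.19. The interval does not reach the differences fitted for Junb, Jund or Fosl2. It does overlap the 95% interval of the Jund difference, 0.16 to 0.85, and members were not tested against each other. Under 2 scalings the Jun difference was above 0, at 0.16 with quantile normalisation and 0.15 when the library scaling left out the muscle, erythroid and neutrophil markers and the 50 highest genes. The second of these moved the median of all genes tested by a similar 0.15 and the split of called genes from 1732 higher and 1729 lower to 2720 higher and 777 lower.

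**Figure D2:**
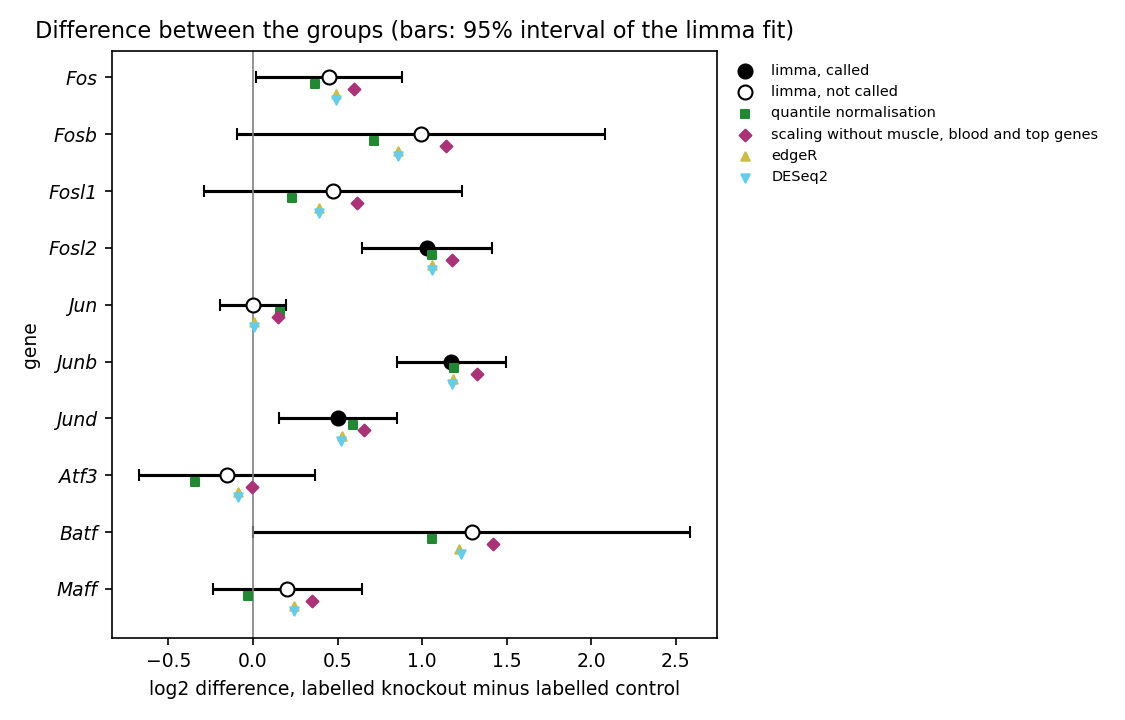
Log2 difference (labelled knockout minus labelled control) of each AP-1 gene, with the 95% interval of the limma fit, filled circles for called genes and small marks for 2 other scalings and for edgeR and DESeq2. The marks for Junb, Fosl2 and Jund all lie to the right of 0, and those for Jun lie between 0.00 and 0.16.

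Atf3, Batf and Maff, which pair with Jun or other zipper proteins, were not called. Atf3 is a stress-induced repressor or activator that is widely used as a marker of injured sensory neurons. Atf3 lies on chromosome 1 from 191170296 to 191218039, with Gm24748 on the opposite strand. Atf3 had 162, 152, 165 and 134 normalised reads in the control libraries and 80.8, 177, 154 and 160.2 in those labelled knockout, each in replicate order. Knockout replicate 1 was the lowest of all 8 libraries, and the others lay between 134 and 177. The fitted Atf3 difference was a log2 of -0.15 with a 95% interval of -0.67 to 0.36 (limma adjusted p = 0.663), and without knockout replicate 1 it was 0.10.

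Batf encodes a small zipper protein without an activation domain that is known from lymphocytes and dendritic cells. Batf lies on chromosome 12 from 85686669 to 85709087. It was the lowest member, with 4, 5, 1 and 10 recovered reads in the control libraries and 16, 14, 13 and 8 in those labelled knockout, each in replicate order. It reached the filter of 10 in 3 libraries labelled knockout and 1 control library, so it was tested mainly through the group where it was higher. Control replicate 4 lay above knockout replicate 4, so the groups overlapped. The fitted Batf difference was a log2 of 1.29 with a 95% interval of 0.00 to 2.58 (limma adjusted p = 0.130), and it ranged from 0.64 with a pseudocount of 8 to 1.69 over the alternatives, with 0.81 without control replicate 3.

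Maff is a small Maf protein that lacks an activation domain and pairs with cap'n'collar factors at antioxidant elements. Maff lies on chromosome 15 from 79346621 to 79359076. Maff had 94.1, 80.8, 100.9 and 101.9 normalised reads in the control libraries and 79.8, 148, 114 and 102.1 in those labelled knockout, each in replicate order. Knockout replicate 1 was the lowest of the 8 and knockout replicate 2 the highest. The fitted Maff difference was a log2 of 0.20 with a 95% interval of -0.24 to 0.64 (limma adjusted p = 0.485), and it was -0.03 with quantile normalisation.

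To compare levels between members, each normalised read count was divided by the summed length of the gene's annotated exons, in kb. This length counts every annotated exon, so a gene of which a short transcript is used is set too low by it, and Fosl2 (9680 bases) and Fosb (6243 bases) have the longest exon sums. In the control group the order of mean level per kb was Jun (550 ± 45.2), Jund (489 ± 72.8), Junb (168 ± 30.8), Fos (97.1 ± 12.5), Atf3 (71.1 ± 6.53), Fosl2 (45.4 ± 7.20), Maff (36.4 ± 3.76), Fosl1 (14.0 ± 7.59), Fosb (6.21 ± 4.76) and Batf (3.78 ± 2.96). The ranges of Jun and Jund overlapped there, as did those of Fosl1 and Fosb and of Fosb and Batf, and all other neighbours in the order were separate. In the libraries labelled knockout Jund came first (698 ± 139 per kb) and Jun second (548 ± 38.0), with overlapping ranges. Junb had 379 ± 59.8 per kb there and Fosl2 93.8 ± 21.7, and Fosl2 stood above Atf3 (66.4 ± 19.8) in the order, also with overlapping ranges.

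Shares within both families were computed in each library. Of the summed Jun family level per kb, Jun held 42.5% to 50.1% in the control libraries and 31.3% to 37.8% in those labelled knockout. Junb held 11.6% to 18.5% and 21.6% to 24.6%, and Jund 36.1% to 44.0% and 37.6% to 45.8%. The Junb and Jun shares did not overlap between the groups, and the Jund shares did. The ratio of Junb to Jun per kb was 0.276, 0.262, 0.436 and 0.269 in the control libraries and 0.651, 0.660, 0.665 and 0.777 in those labelled knockout. Such a ratio is taken within a library, so no scaling of the library enters it.

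Of the summed Fos family level per kb, Fos held 57.2% to 64.4% in the control libraries and 49.5% to 53.6% in those labelled knockout, and Fosl2 held 23.4% to 31.8% and 32.8% to 38.7%. Neither overlapped between the groups. Fosl1 held 5.46% to 14.8% and 5.01% to 9.35%, and Fosb 1.55% to 7.12% and 3.19% to 5.47%. The ratio of Fosl2 to Fos per kb was 0.394 to 0.550 in the control libraries and 0.619 to 0.781 in those labelled knockout. That Fos stood above Fosl2 rests on the exon lengths. In normalised reads the order was reversed, with group means of 439 and 908 for Fosl2 and 228 and 319 for Fos (control first). The summed Jun family level was 6.09 to 9.11 times the summed Fos family level in the control group and 4.84 to 8.35 times in the other, with overlapping ranges. These shares are descriptions of RNA levels and say nothing of protein or of dimers.

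**Figure D3:**
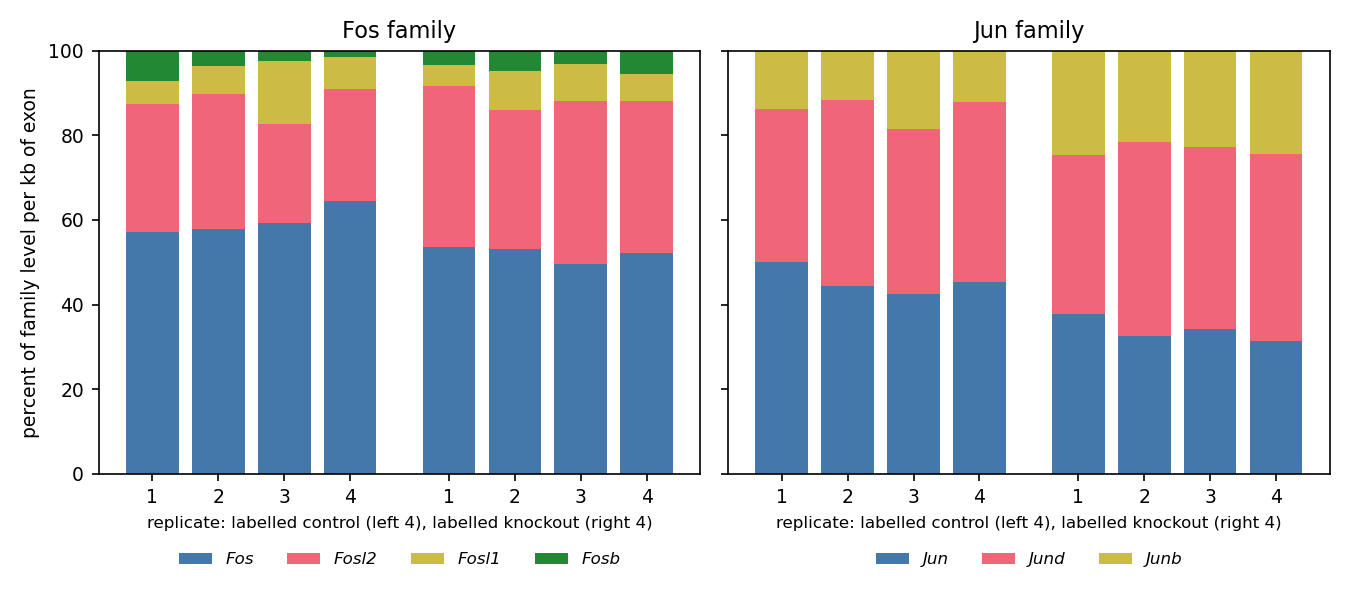
Percent of the summed level per kb of exon that each gene holds in the Fos family (left panel) and the Jun family (right panel), 1 bar per library, in replicate order. In the right panel the Junb segment is at most 18.5% in the control libraries and at least 21.6% in the libraries labelled knockout.

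How the members varied among libraries of the same group was described with log2 values after subtracting each group's mean, over 8 libraries that share 2 group means. The pairs that moved most alike were Fosl1 with Junb (r = 0.79), Fos with Fosl2 (r = 0.79), Atf3 with Maff (r = 0.76) and Fosb with Fosl2 (r = 0.74). Fosl2 and Junb, whose groups did not overlap, moved little alike within them (r = 0.15, against 0.87 when the group means are kept). Control replicate 1 was high in Fosb and Fosl2, and control replicate 3 was high in Fosl1 and Junb. Knockout replicate 4 was the highest of its group in Fos, Fosb, Fosl2, Jun, Junb and Jund. Its summed muscle (834571), erythroid (3989), neutrophil (1013) and B cell (11.4) marker levels were the lowest of all libraries. Its fibroblast (223272), cartilage (12341), macrophage (5404) and skin (57.2) levels were the highest. By the same within-group measure, Fosl2 correlated with the summed marker levels at -0.75 (endothelium) to 0.76 (osteoclast). Junb correlated with them at -0.75 (muscle) to 0.69 (fibroblast). A link of any marker level to the AP-1 genes was not tested. With 8 libraries these values describe the libraries only.

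**Figure D4:**
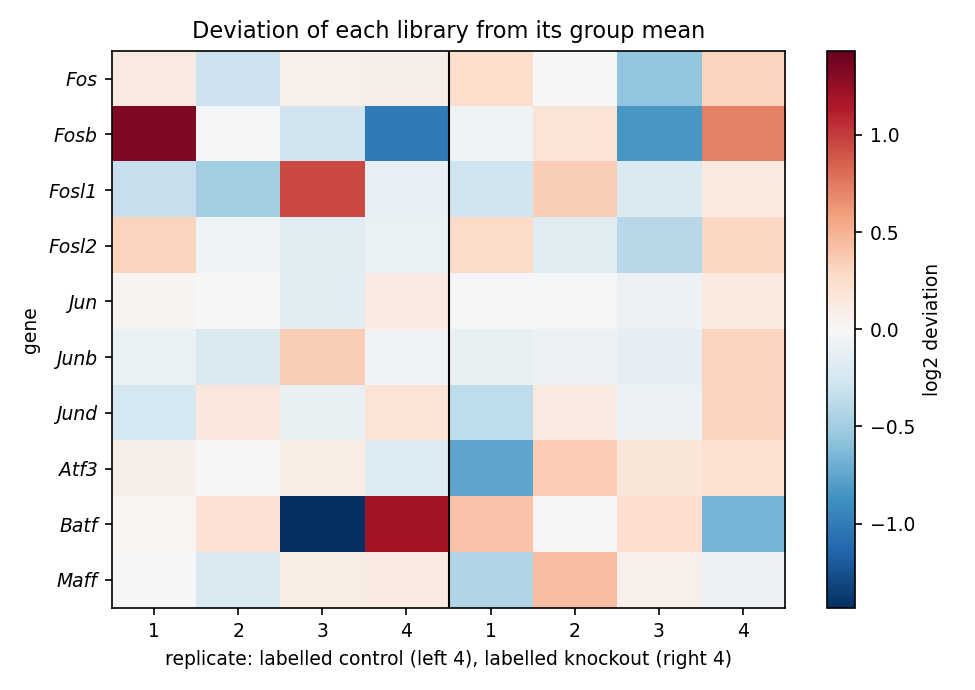
Log2 deviation of each library from its group's mean for the 10 AP-1 genes, with red above and blue below the mean and the groups divided by a line. Fosb is high in control replicate 1, Fosl1 is high in control replicate 3, and knockout replicate 4 is above its group mean in all 3 Jun genes.

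The genes whose pattern was most like a member's were found by the same within-group correlation over the 8 libraries, among 11638 other tested genes with a mean of at least 50. Any gene finds close matches among so many at this number of libraries. Most like Junb were Plxnb2 (r = 0.98), Larp6 (r = 0.98) and Anpep (r = 0.97). Most like Fosl2 were Cenpt (r = 0.97), Myc (r = 0.96), itself an immediate early gene, and Ptpn1 (r = 0.95). Most like Fos were Atxn3 (r = 0.98), Spaca6 (r = 0.97) and Actr3 (r = 0.97), and most like Jund were Zbtb10 (r = 0.97), Add2 (r = 0.96) and Ttc30b (r = 0.95). Most like Jun were Rin1, Rasgrp4 and Zfp771, with r of 0.97, 0.97 and 0.96. For the less abundant members they were Chtf8, Cnpy3 and Ccdc137 (Fosb), Eif2ak3, 4632415L05Rik and Fam129b (Fosl1), Aif1l, Hspg2 and Zyx (Atf3), E130308A19Rik, Ubqln4 and Hmgb3 (Batf), and Cdk5rap1, Josd1 and Nck2 (Maff), with r of 0.95 to 0.99.

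Other zipper genes that can join or compete with AP-1 differed in both directions. Of 11 listed, 10 were tested, 2 were called higher and 2 lower, with a median log2 difference of 0.04. Beside this list and those below, 11.6% of all genes tested were called higher and 11.6% lower. Jdp2, a repressor that pairs with JUN and is needed for osteoclast formation, rose from 147 to 413 normalised reads (log2 difference 1.48, limma adjusted p = 0.0132), though its groups overlapped, with 104 to 237 in the control and 226 to 586 in the other libraries. Maf fell from 3315 to 2332 (-0.51, limma adjusted p = 0.00621) and Mafa fell from 1666 to 1202 (-0.48, limma adjusted p = 0.0368). The groups were separate for both. Of the 10 tested, 1 was separate as higher and 3 as lower, beside 25.1% of all genes tested in either direction. The summed muscle marker level was lower in the libraries labelled knockout, and its part in these differences was not tested. The number called was 2 without control replicate 2 and without knockout replicate 4, and with quantile normalisation the median was -0.06.

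The kinases and factors that act upstream of AP-1 were mostly lower where they were called. Of 20 tested, 10 were called lower and 1 higher, with a median log2 difference of -0.31. Those with the smallest p were Map2k2, a kinase of the ERK branch (3167 to 2266, log2 difference -0.48, limma adjusted p = 0.00674), Map2k4, a kinase of the JNK branch (1424 to 1028, -0.47, limma adjusted p = 0.00724), Mapk14, the p38 alpha gene (2450 to 1733, -0.50, limma adjusted p = 0.00780) and Mapk9, a JNK gene (961 to 700.0, -0.46, limma adjusted p = 0.00851). The 1 called higher was Mapk3, the ERK1 gene, at 632 and 858 (0.43, limma adjusted p = 0.0333). The count depended on the scaling: without muscle, blood and top genes in the scaling, 5 were called lower and 4 higher and the median was -0.16, while the median of all genes tested was 0.15, and with quantile normalisation 5 were called lower and 1 higher. The total called was 6 without control replicate 2, control replicate 4 or knockout replicate 4. The summed muscle marker level was lower in the libraries labelled knockout, and its part in these differences was not tested.

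The phosphatases that switch these kinases off are themselves often induced with AP-1. Of 10 listed, 9 were tested, 3 were called lower and none higher, with a median log2 difference of -0.20. Dusp16 had 372 and 277 normalised reads (-0.42, limma adjusted p = 0.0114), Dusp8 744 and 468 (-0.66, limma adjusted p = 0.0257) and Dusp10 525 and 400.4 (-0.40, limma adjusted p = 0.0344). Dusp1, the classical immediate early phosphatase, had 1931 and 1445 and was not called (-0.45, limma adjusted p = 0.119). Under the scaling without muscle, blood and top genes, 1 was called lower and 1 higher, and 1 in all was called without control replicate 1, control replicate 4 or knockout replicate 1. The median was -0.05 under that scaling.

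Of 20 textbook AP-1 target genes, 14 were tested, 8 were called higher and none lower, with a median log2 difference of 1.04. The list shares a gene with the osteoclast list below, and that gene counts in both. Itgb8 rose from 16.9 to 52.5 normalised reads (1.59, limma adjusted p = 0.00911), and Mmp13, the collagenase of cartilage breakdown, from 1220.2 to 7645 (2.93, limma adjusted p = 0.00993). Timp1, a metalloproteinase inhibitor, rose from 474 to 2002 (2.52, limma adjusted p = 0.0121) and Tgfb1 from 439 to 879 (0.99, limma adjusted p = 0.0184). These 4 were among 6 of the 14 that were separate between the groups, beside 25.1% of all genes tested. Of the targets not tested, Mmp10 and Areg had no row, and Il6, Il11, Ccl2 and Ptgs2 were below the filter, with at most 4.33, 21.4, 29.4 and 29.9 normalised reads in any library. Leaving out knockout replicate 4 left 3 called targets, control replicate 2 or 4 left 4, and knockout replicate 1 left 5. The summed fibroblast and macrophage marker levels were higher in the libraries labelled knockout, and their part in these differences was not tested.

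The osteoclast genes that FOS and NFATC1 are known to drive were tested for all 10 on the list: 8 were called higher, none lower, and Calcr and Nfatc1 were not called, with a median log2 difference of 2.67. Ctsk (2166 to 11089.9, 2.53, limma adjusted p = 0.0114), Oscar (25.0 to 207, 3.47, limma adjusted p = 0.0127), Dcstamp (16.2 to 115, 3.51, limma adjusted p = 0.0189) and Acp5 (1593 to 6997, 2.92, limma adjusted p = 0.0239) had the smallest p. Dcstamp was at 2.19 to 53.0 in the control libraries, of which 1 reached the filter of 10, and Oscar was at 6.54 to 75.7 there. The libraries labelled knockout, from 35.9 for Dcstamp and from 69.3 for Oscar, met the filter alone. Both genes were therefore tested through the group where they were higher. Nfatc1 itself, at 1037 and 1138, was not called (0.12, limma adjusted p = 0.50), and Fos was not either. The groups were separate for 1 of the 10, Ctsk, beside 25.1% of all genes tested, and 4 were called by edgeR and 4 by DESeq2. Leaving out control replicate 2, knockout replicate 1 or knockout replicate 4 left 2 called, leaving out control replicate 4 left 3, and leaving out control replicate 3 left 5. These genes are themselves markers of osteoclasts, so their rise and the summed osteoclast marker level are the same measurement in part.

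Other immediate early genes, which answer the same signals as Fos and Junb, were partly higher. Of 17 tested, 5 were called higher and none lower, with a median log2 difference of 0.37. Ier2 rose from 245 to 399 normalised reads (0.69, limma adjusted p = 0.00765), Egr1 from 371 to 799 (1.08, limma adjusted p = 0.0158), Nr4a2 from 55.2 to 132 (1.30, limma adjusted p = 0.0168) and Ier3 from 165 to 227 (0.46, limma adjusted p = 0.0290). Nr4a1 had 3349 and 2354 and was not called (-0.48, limma adjusted p = 0.0737). Quantile normalisation called 3 of the 17, and the fits without control replicate 2 and without knockout replicate 4 called 3 and 2.

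**Figure D5:**
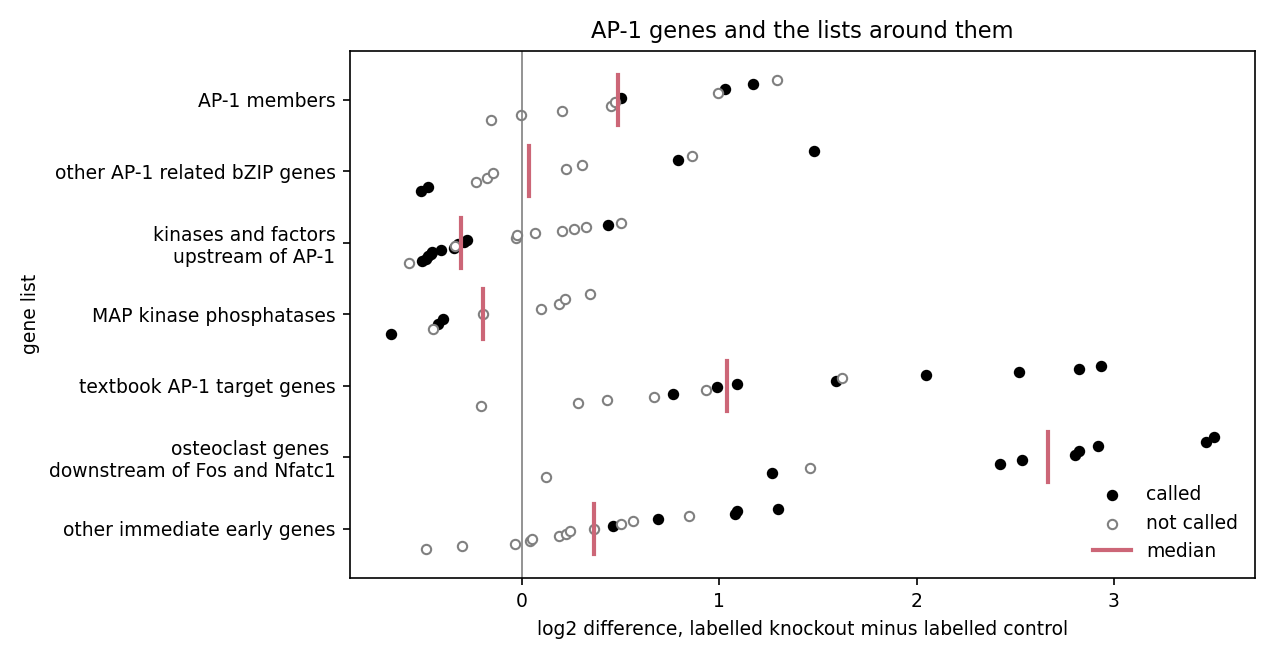
Log2 difference (labelled knockout minus labelled control) of every tested gene in the AP-1 set and in 6 related lists, with filled points for called genes, open points for genes not called and a red line at the median of each list. The medians run from -0.31 for upstream kinases and factors to 2.67 for osteoclast genes, and that of the AP-1 genes is 0.49.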

How the data were processed

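The authors deposited 1 table with 1 value per gene and library, a normalised signal. Per the labels and the submitters' processing notes, reads were aligned to mm10 (HISAT2 is among the tools named), counted per gene with featureCounts, and normalised, filtered and tested with DESeq2. Versions, annotation, strand use and filter values are not given in the sources used here. In every column 100% of values were whole multiples of its smallest positive value (tolerance 0.01), so the deposited signal is a read count divided by a size factor. Whole reads were recovered from it, although the multiple was too close to 1 to show this alone in control replicate 2 (1.01) and in knockout replicate 1 (0.997). Every value column matched a sample label.

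The filter kept the 14949 genes that reached 10 in 4 or more libraries. Values were log2-transformed after adding a pseudocount of 1 and fitted with limma 3.58.1 (group only, intensity trend), with Benjamini-Hochberg adjustment over all genes tested and a call at an adjusted p under 0.05. Fold changes are on this log2(value + 1) scale, which understates low genes. edgeR 4.0.16 and DESeq2 1.42.0 on the recovered reads (3324 and 4125 genes called, against 3461), other scalings, pseudocounts, filters, a replicate block and leaving out each library were alternatives. The fit was also run on simulated counts, and the outcome is not given here. Over the 12 within-group pairs of libraries, chi-square divided by its degrees of freedom was 24.99 to 66.86. Coordinates, overlaps and exon lengths are from GENCODE release M21 (mm10 coordinates).

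The members and gene lists were chosen with earlier results of these data known. All members are named, with at most 4 genes of smallest p from each related list, plus list members needed for a member's result, and the 3 genes most like each member. Il6, Il11, Ccl2, Ptgs2, Dusp1, Nfatc1, Calcr, Nr4a1 and Mapk3 were named after their values were seen. The result of 1 gene of a related list is not reported here.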

Additional observations from a re-analysis of the deposited data

Results flagged for a closer look

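Among the 20 sets of 4 values of the AP-1 genes, 2 had 1 library whose gap to its nearest neighbour was above Dixon's 95% critical value for 4 values, where chance gives about 1 in 20. Fos was low in control replicate 2 (184.7 normalised reads, a gap of 0.852 of the range), while the other control libraries lay within 239 to 249. Junb was high in knockout replicate 4 (1077.4, a gap of 0.896 of the range), and without that library its log2 difference was 1.07 (limma adjusted p = 0.0142).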

How the results depend on the processing

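The calls of Fosl2 and Junb held in all 18 alternatives, with log2 differences of 0.93 to 1.18 and 1.07 to 1.32, and that of Jund in 11 of 18. Of 178 member values under an alternative, 158 kept their sign and their side of the threshold, 7 lost a call (all Jund), 2 gained one (Fos and Fosb) and 11 changed sign, none of these called. Jun changed sign with quantile normalisation (0.16), the scaling without muscle, blood and top genes (0.15), edgeR (0.0066) and DESeq2 (0.0049) and in 5 of the 8 leave-one-out fits (all 8 lay between -0.058 and 0.038), Maff with quantile normalisation (-0.032), and Atf3 without knockout replicate 1, with -0.28 to 0.10 over the libraries left out. The number of members whose groups did not overlap ranged from 2 to 4 over those fits, since fewer libraries separate more easily, and was 4 without knockout replicate 1, with Jund and Maff added. Over the fits that left out 1 library, the number of genes called in the whole table ranged from 1751 (without knockout replicate 4) to 3841 (without knockout replicate 3), with 1887 without control replicate 2 and 2194 without control replicate 4. With the replicate block it was 2018, with Fosl2, Junb and Jund still called, and it called 5 upstream kinases and factors (against 11), 1 phosphatase (against 3) and 3 other immediate early genes (against 5). The labels do not say that a number marks a shared origin, and the deviations of same-numbered libraries correlated at 0.213, -0.118, -0.233 and -0.063. Counting depth limits Batf, with 1 to 16 reads per library, more than any other member.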
